A study of Ictidomys tridecemlineatus with 15 samples.

Results

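Solute carriers are membrane proteins that move small molecules into and out of cells and organelles, and in the liver they set what hepatocytes take from the blood and return to it. They work as uniporters, as exchangers or by riding on sodium or proton gradients, and each family is known for a group of substrates. The 87 genes described here are the solute carriers outside the mitochondrial Slc25a family among the 4705 transcription units of ground squirrel liver that carry a single gene name. They were chosen by name alone, as units named Slc or Slco followed by a digit, and were sorted by family number into classes for sugars (6 genes), amino acids and peptides (18), bile acids and organic ions (11), metals (17), ions (12), monocarboxylates with fatty acids, vitamins and choline (12) and nucleosides and nucleotide sugars (10). The remaining member, Slc4a1ap, encodes an adaptor protein named after a carrier and is not a carrier itself. Slc8b1 and Slc30a9 were kept by the rule although their products are known to sit in mitochondria.

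The assay was GRO-seq, a measure of nascent transcription in which nuclei from frozen tissue resume transcription in a run-on reaction and the labelled RNA is sequenced, so that a count reports engaged RNA polymerase along a gene rather than the amount of its RNA. The livers came from female, laboratory-housed 13-lined ground squirrels, hibernators that alternate between bouts of torpor at low body temperature and short rewarmed intervals. There were 5 physiological states and no other treatment in the labels. SA animals were summer active, IBA animals were interbout aroused and so warm between torpor bouts, Ent animals were cooling at entrance into torpor, and ET and LT animals were in early and late torpor. Each library came from 1 animal, with 2 libraries in LT (replicates 1 and 3) and 3 in each other state, so that p-values measure the spread between animals, and 1 further LT library was not used here. The animals were collected over more than 1 hibernation season, and all 3 ET animals came from a season that held no other state, so that for ET season and state cannot be told apart. Both LT animals came from 1 season, which they shared with 2 Ent animals. The other states were spread over the seasons differently, so that season and state are partly mixed in other comparisons too, IBA with LT among them.

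Library totals ran from 3713883 to 8884763 counts over 6324 transcription units, and levels are given as CPM, the count scaled to the TMM-normalized library size. Each member had at least 17 counts in every library, the lowest being for Slc6a13. States were compared with edgeR's quasi-likelihood test fitted to all units and all 14 libraries, and the Benjamini-Hochberg adjustment ran over the whole table. In what follows "rose" and "fell" are used for an adjusted p at or under 0.05, and genes that also passed 0.001, the threshold of the study, are counted separately. Because every library is scaled to its own size, a rise or fall is relative to the other units of that library. Differences in total transcription between states were not measured, and the paper states that scaling by library size hides them. A call described as lost without a library missed 0.05 when that library alone was left out. The value after ± is the SE for a log2 fold change and the SD for a mean. Because whole liver was used, fewer cells of a type and less transcription per cell cannot be told apart.

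The carriers as a group took a smaller share of all counts in torpid animals. In the 9 libraries of SA, IBA and Ent they held between 1.52% and 1.77% of the counts, and in the 5 libraries of ET and LT between 1.33% and 1.38%, with no overlap. The 5 carriers with the most counts were Slc38a4, Slc27a2, Slc22a23, Slc41a2 and Slc2a2, and without them the shares were 0.933% to 1.11% in the warm and cooling libraries and 0.85% to 0.914% in the torpid ones. Per kilobase of the counted gene body the order of levels over the 5 states was led by Slc38a4 (26.4 CPM per kb), the fatty acid carrier Slc27a2 (21.6), Slc38a2 (18.1), Slc2a2 (16.4) and Slc10a1 (12.2), and the lowest level was that of Slc35f3 (0.11).

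**Figure D1:**
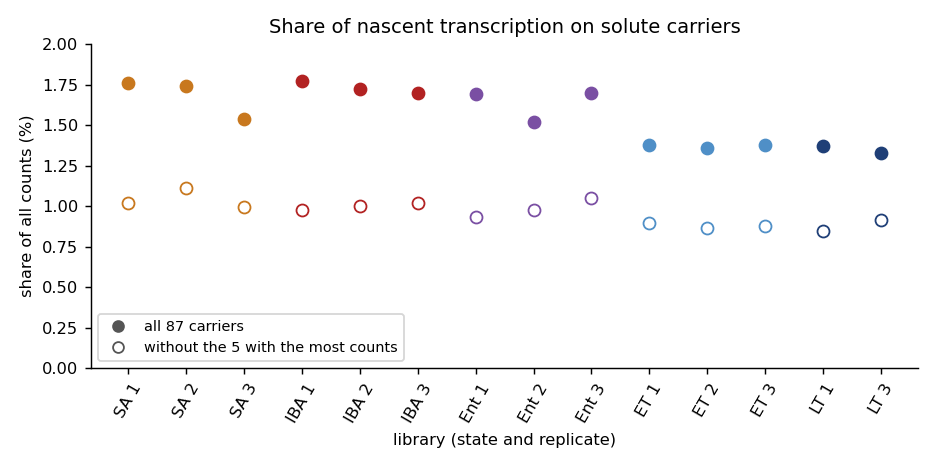
Share of all counts (%, y axis) that fell on solute carriers in each of the 14 libraries (x axis, state and replicate); filled points are all 87 carriers and open points leave out the 5 with the most counts. The 5 ET and LT libraries lie between 1.33% and 1.38%, under all 9 SA, IBA and Ent libraries.

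Among the 5 states, 53 of the 87 carriers (60.9%) differed at an adjusted p of 0.05, where 63.3% of all single-gene units did, and 18 (20.7%) at 0.001, where 26.4% did. Both shares were near or under the background. The mean was highest in SA for 32 carriers (36.8%, against 24.3% of all single-gene units) and in LT for 10 (11.5%, against 20.7%). The state means, drawn by class for 51 of the 53 carriers, show cold-low and cold-high genes side by side in nearly every class.

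**Figure D2:**
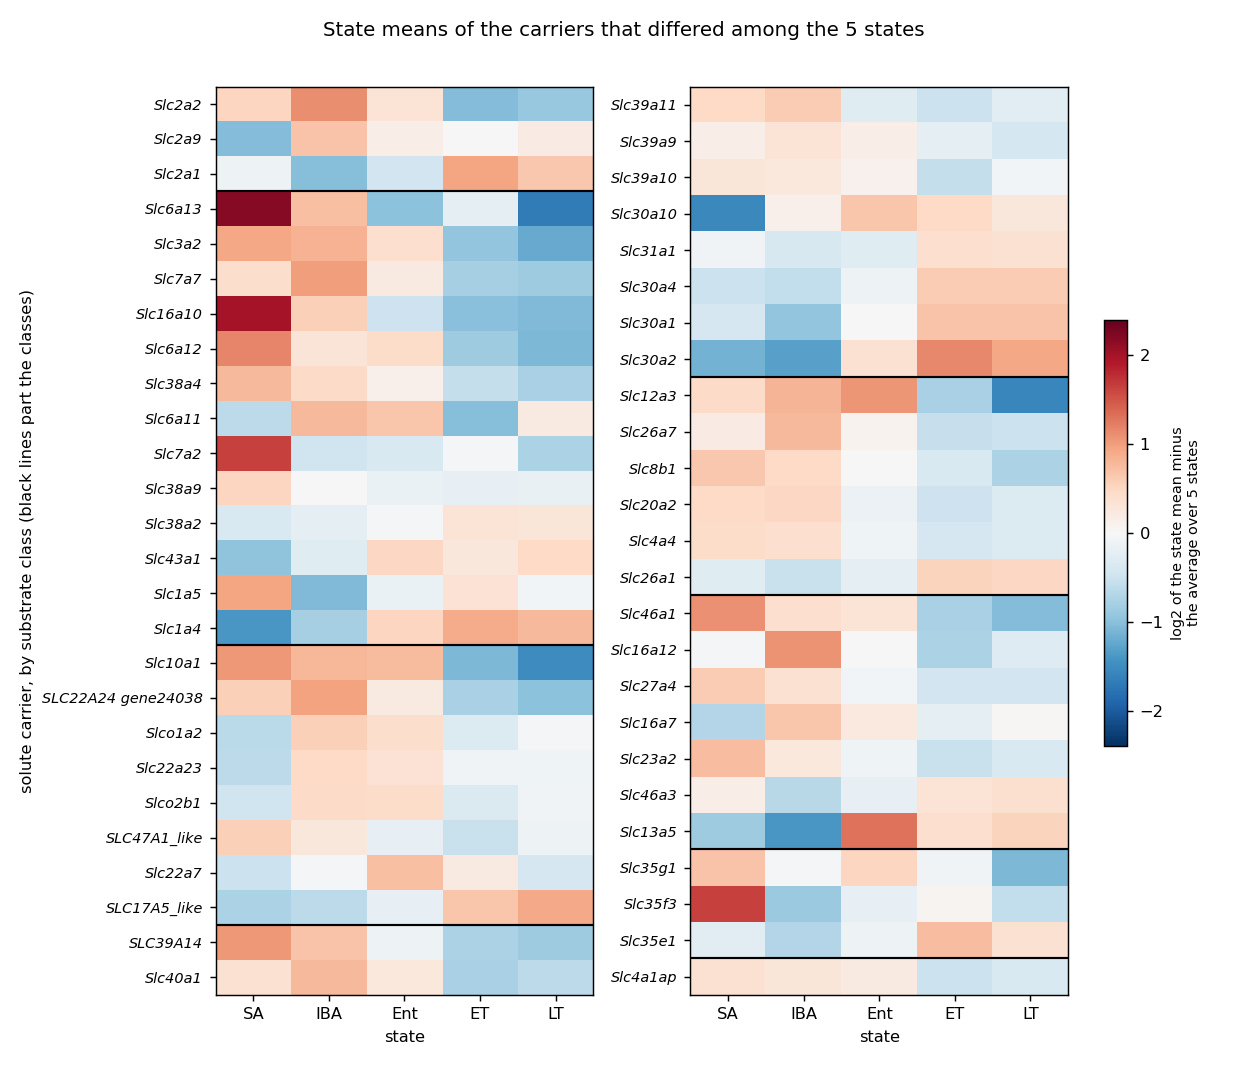
State means of 51 of the 53 carriers that differed among the 5 states at an adjusted p of 0.05, as the log2 of the state mean minus its average over the 5 states (colour), with states as columns and carriers as rows. Black lines part, from the top left, sugar, amino acid, bile acid and organic ion, metal (continued at the top right), ion, monocarboxylate and vitamin, and nucleoside and nucleotide sugar carriers and Slc4a1ap; 32 of all 87 carriers had their highest mean in SA.

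The comparison of IBA with LT, which asks how the warm interval between bouts differs from the end of a bout, called the most carriers, 36 of 87 (41.4%, where 50.7% of single-gene units were called). From IBA to LT 11 rose and 25 fell, 12.6% and 28.7% of the carriers, against a background of 24.1% and 26.6%. The median log2 fold change was -0.328 over the carriers and -0.088 over the single-gene units. At 0.001, 4 rose and 5 fell (10.3% in all, against 17.6% in all and 9.46% and 8.18% by direction). This last count was 1 without LT replicate 1, 5 without IBA replicate 1 or 2, 4 without LT replicate 3 and 4 with the season as a covariate, where 7 rose and 15 fell at 0.05. Without LT replicate 1 the counts at 0.05 were 10 and 16. With library totals alone 15 rose and 23 fell at 0.05, and the median over the single-gene units was 0.014. The IBA and LT libraries did not overlap for 60 carriers (69%, against 74.3%), of which 22 were higher and 38 lower in LT (against 34.1% and 40.2%).

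Fewer carriers were called at each single step of the cycle. From SA to IBA, the seasonal comparison between warm animals, 6 rose and 4 fell (11.5% in all, against 5.57% in all and 2.7% and 2.87% by direction), and without IBA replicate 1 or 3 the counts were 5 and 2. None passed 0.001 by edgeR (against 0.0213%), where DESeq2 called 10, and 30 had an unadjusted edgeR p under 0.05. From IBA to Ent 4 rose and 6 fell (11.5%, against 16.7% in all and 8.57% and 8.12% by direction). These counts were 2 and 2 without IBA replicate 1, 3 and 2 without IBA replicate 2, 2 and 3 without IBA replicate 3, and 3 and 3 without Ent replicate 2 or 3. With the season as a covariate 4 rose and 3 fell. None passed 0.001 by edgeR (0.0425%), where DESeq2 called 4, and 27 had an unadjusted edgeR p under 0.05. From Ent to ET 7 rose and 14 fell (24.1%, against 29.2% in all and 15.4% and 13.8% by direction), and 1 fell past 0.001 (2.3% in all, 1.13% higher and 1.17% lower). Without Ent replicate 1 the counts at 0.05 were 2 and 12, and without Ent replicate 3 they were 4 and 12. From Ent to LT 5 rose and 12 fell (19.5%, against 27.1% in all and 13.5% and 13.7% by direction), and 1 fell past 0.001 (2.38% in all, 0.893% higher and 1.49% lower). At 0.05 the counts were 0 and 4 without LT replicate 1, 1 and 10 without LT replicate 3, and 1 and 9 without Ent replicate 1. From ET to LT no carrier was called by edgeR (against 0.34%), by DESeq2 or by limma-voom, and 5 had an unadjusted edgeR p under 0.05. The libraries of the compared states did not overlap for 35 carriers from IBA to Ent (40.2%, against 44.2%) and for 35 from Ent to ET (40.2%, against 44.3%). These comparisons share libraries, so that their lists are not independent of one another.

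**Figure D3:**
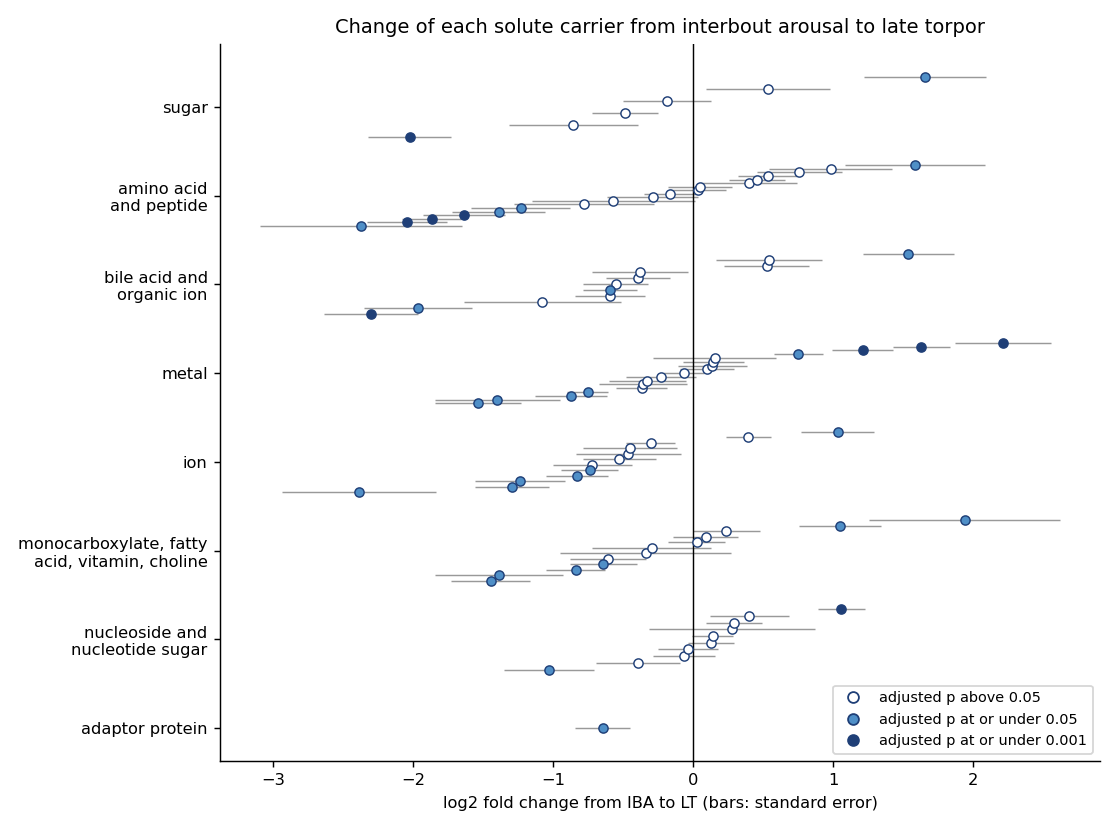
Log2 fold change from IBA to LT (x axis, with its SE as a bar) of each of the 87 carriers, in rows by substrate class. Filled points passed an adjusted p of 0.05 (light) or 0.001 (dark); 11 carriers lie to the right and 25 to the left among the filled points.

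Of the 6 sugar carriers, 1 rose and 1 fell from IBA to LT, where 24.1% of all single-gene units rose and 26.6% fell. The 2 called were the pair that carries glucose across the cell membrane of most cells and of hepatocytes. Slc2a2 (HiC_Itri_2 chromosome Itri7, 101996220 to 102048994, minus strand) encodes GLUT2, the low-affinity glucose carrier through which hepatocytes take up and release glucose. Its counts were 1335, 1121 and 695 CPM in SA, 1665, 1443 and 1677 in IBA, 905, 693 and 1170 in Ent, 291, 365.5 and 412.5 in ET and 419.9 and 364 in LT. Both torpid groups lay under every warmer library. Slc2a2 fell 1.73-fold from IBA to Ent (log2 fold change -0.79 ± 0.24, adjusted p = 0.045), 2.59-fold from Ent to ET (log2 fold change -1.37 ± 0.25, adjusted p = 0.002) and 4.07-fold from IBA to LT (log2 fold change -2.02 ± 0.29, adjusted p = 0.00016). The step from IBA to Ent is the weakest of these: it was lost without any single IBA library, Ent replicate 1, Ent replicate 2, ET replicate 2, ET replicate 3 or any single LT library (highest adjusted p = 0.15), with upper-quartile normalization, with library totals alone and with the season as a covariate (log2 fold change -0.79, adjusted p = 0.11).

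Slc2a1 (HiC_Itri_2 chromosome Itri11, 58379971 to 58411482, minus strand) encodes GLUT1, the high-affinity glucose carrier of erythrocytes, endothelium and many proliferating cells, and it moved the other way. Its counts were 41.2, 57.8 and 64.6 CPM in SA, 28.7, 30.9 and 28.1 in IBA, 45.4, 58.65 and 24.8 in Ent, 201, 63.2 and 79.3 in ET and 87.8 and 96.3 in LT. The IBA libraries were all lower than the LT and ET libraries, and ET replicate 1 stood apart from the other ET libraries. Slc2a1 rose 2.67-fold from Ent to ET (log2 fold change 1.415 ± 0.39, adjusted p = 0.018) and 3.15-fold from IBA to LT (log2 fold change 1.65 ± 0.43, adjusted p = 0.0072). The first call was lost without Ent replicate 1, Ent replicate 3 or ET replicate 1 (highest adjusted p = 0.093), with a log2 fold change of 0.732 without ET replicate 1, and in the fit of Ent and ET alone, and the second with the season as a covariate (log2 fold change 1.405, adjusted p = 0.12). The part of GLUT1-rich cells in this was not tested: no unit of the erythroid list was measured on its own, and the endothelial markers Kdr and Pecam1 summed to 166 to 184 CPM in IBA and 73.8 to 91.2 in LT.

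Slc2a9, a carrier known for urate as well as sugars, showed a seasonal change. Its counts were 67, 92.4 and 60.1 CPM in SA, 210.3, 292 and 220.2 in IBA, 169, 183 and 154 in Ent, 194, 114 and 143 in ET and 176 and 168 in LT, so that every IBA library lay above every SA library. Slc2a9 rose 3.303-fold from SA to IBA (log2 fold change 1.72 ± 0.21, adjusted p = 0.0023), and the call held without any 1 library and with the season as a covariate (log2 fold change 1.73, adjusted p = 0.0041). Slc2a10, a carrier of the secretory pathway, fell from Ent to ET (log2 fold change -1.29 ± 0.40, adjusted p = 0.03), a call lost without Ent replicate 1, Ent replicate 2, ET replicate 2 or ET replicate 3 (highest adjusted p = 0.097). The lysosomal Slc2a8 and the sugar phosphate exchanger Slc37a1 were not called in any comparison. Slc37a4, the glucose 6-phosphate carrier that works with glucose 6-phosphatase, had no unit of its own.

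**Figure D4:**
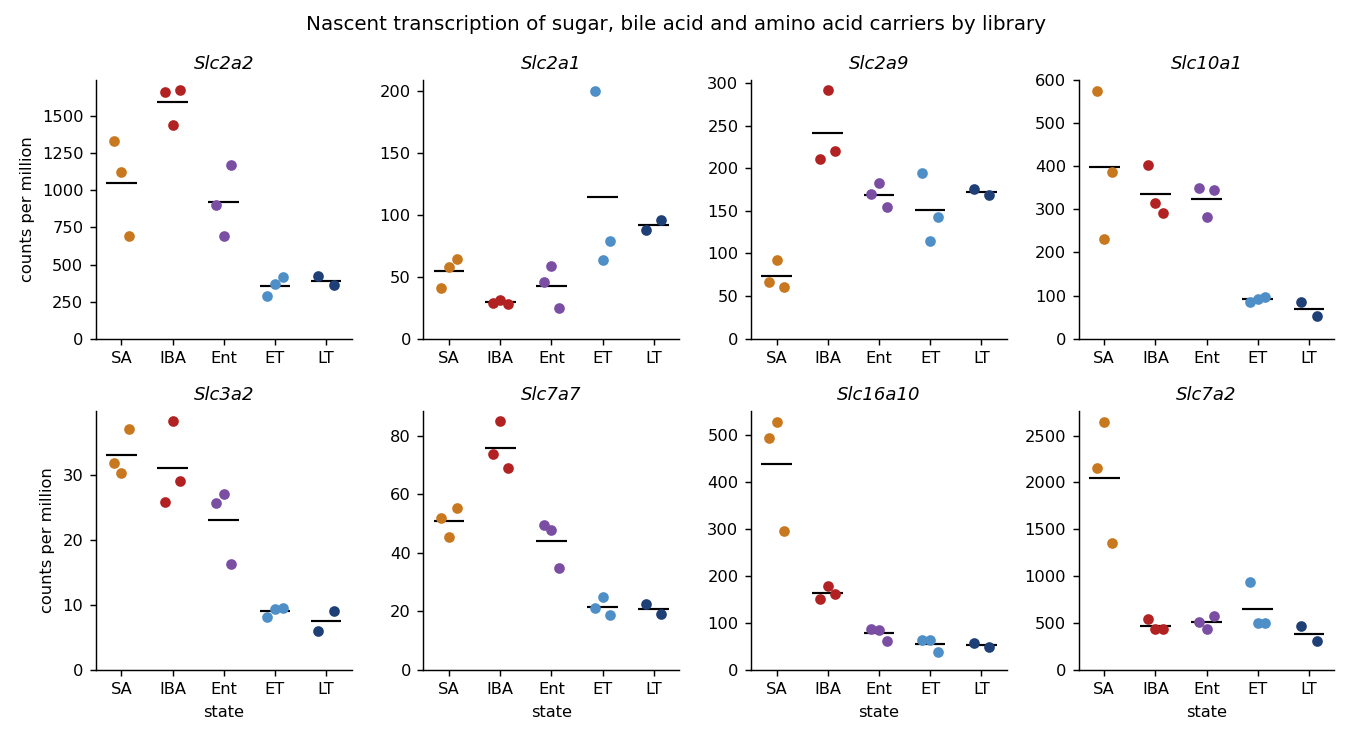
CPM (y axis, from 0) of 8 sugar, bile acid and amino acid carriers in the 5 states (x axis); points are libraries and black lines are group means. Slc2a2, Slc10a1, Slc3a2 and Slc7a7 sit lowest in ET and LT, Slc2a1 is higher there, Slc2a9 steps up and Slc7a2 and Slc16a10 step down between SA and IBA.

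Amino acid carriers made up the largest class. From IBA to LT 1 of 18 rose and 6 fell, against 24.1% and 26.6% of all single-gene units. Those that fell past 0.001 were Slc3a2, Slc7a7 and Slc16a10, genes of proteins that exchange or release large, cationic and aromatic amino acids. Slc3a2 (HiC_Itri_2 chromosome Itri3, 10306822 to 10327452, minus strand) encodes CD98hc, the heavy chain that brings several light-chain exchangers, among them the products of Slc7a5 and Slc7a7, to the cell surface. Its counts were 31.8, 30.3 and 37.1 CPM in SA, 25.9, 38.25 and 29.1 in IBA, 25.7, 27.1 and 16.3 in Ent, 8.099, 9.43 and 9.58 in ET and 6.05 and 8.985 in LT. Slc3a2 fell 2.55-fold from Ent to ET (log2 fold change -1.35 ± 0.24, adjusted p = 0.0019) and 4.13-fold from IBA to LT (log2 fold change -2.045 ± 0.285, adjusted p = 0.00012), and no ET or LT library reached the lowest Ent library. Slc7a7 encodes the light chain y+LAT1, which exports cationic amino acids. Its counts were 51.8, 45.4 and 55.4 CPM in SA, 73.9, 85.3 and 68.97 in IBA, 49.5, 47.9 and 34.7 in Ent, 21.2, 24.75 and 18.8 in ET and 22.7 and 19 in LT. Slc7a7 fell 1.73-fold from IBA to Ent (log2 fold change -0.79 ± 0.17, adjusted p = 0.011), 2.04-fold from Ent to ET (log2 fold change -1.03 ± 0.18, adjusted p = 0.0016) and 3.65-fold from IBA to LT (log2 fold change -1.87 ± 0.21, adjusted p = 3.1e-05). Each of these Slc3a2 and Slc7a7 calls held without any 1 library. Slc7a5, the LAT1 light chain for large neutral amino acids, had counts of 42.7, 48.4 and 55.7 CPM in SA, 42.6, 49.75 and 40.7 in IBA, 37.5, 29.5 and 18.5 in Ent, 36.8, 6.68 and 14.04 in ET and 22.98 and 28.7 in LT and was not called (from IBA to LT, log2 fold change -0.78 ± 0.50, adjusted p = 0.21).

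From SA to IBA 3 of 18 amino acid carriers fell, against 2.87% of all single-gene units. Slc7a2 (HiC_Itri_2 chromosome Itri17, 38419409 to 38494311, minus strand) encodes CAT-2, the carrier of arginine and other cationic amino acids in liver. Its counts were 2153, 2647 and 1350 CPM in SA, 540.2, 436 and 440.5 in IBA, 514, 435.5 and 573 in Ent, 942, 499 and 505 in ET and 467 and 305.5 in LT. Slc7a2 fell 4.34-fold from SA to IBA (log2 fold change -2.12 ± 0.30, adjusted p = 0.0029), with every SA library above every other library of the series, and its later comparisons were not called (from IBA to LT, log2 fold change -0.29 ± 0.33, adjusted p = 0.48). Slc16a10 encodes TAT1, a uniporter of aromatic amino acids that also carries thyroid hormone. Its counts were 493, 527 and 296 CPM in SA, 150.3, 178 and 161 in IBA, 87.8, 84.96 and 60.5 in Ent, 64.2, 64.03 and 37.2 in ET and 56.8 and 48.2 in LT. Slc16a10 fell 2.69-fold from SA to IBA (log2 fold change -1.43 ± 0.25, adjusted p = 0.0062), 2.099-fold from IBA to Ent (log2 fold change -1.07 ± 0.25, adjusted p = 0.014) and 3.11-fold from IBA to LT (log2 fold change -1.64 ± 0.29, adjusted p = 0.00064). Only the step from IBA to Ent depended on a library, being lost without Ent replicate 3 (highest adjusted p = 0.055). Slc1a5, the glutamine carrier ASCT2, was at 43.9, 25.3 and 61.2 CPM in SA and 7.39, 16.7 and 8.46 in IBA. It fell 4.01-fold from SA to IBA (log2 fold change -2.00 ± 0.41, adjusted p = 0.014), a call lost without IBA replicate 1 or IBA replicate 3 (highest adjusted p = 0.078) and in the fit of SA and IBA alone.

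Among genes of sodium-coupled uptake, Slc38a4 fell and Slc1a4 rose from IBA to LT, and both calls depended on single libraries. Slc38a4, the liver's system A carrier for neutral amino acids and the carrier with the highest level, had counts of 3481, 3088 and 2356 CPM in SA, 2605, 2557 and 1946 in IBA, 2587, 1383 and 1689 in Ent, 1603, 978 and 915 in ET and 1294 and 726 in LT, and fell 2.345-fold from IBA to LT (log2 fold change -1.23 ± 0.35, adjusted p = 0.012), a call lost without LT replicate 3 (highest adjusted p = 0.13). Slc38a2, the system A carrier known to answer amino acid shortage, was at 330.2, 378.5 and 276 CPM in IBA and 548 and 401 in LT and missed the threshold (log2 fold change 0.53 ± 0.21, adjusted p = 0.0503), although it differed among the 5 states (adjusted p = 0.023). Slc1a4, the serine and alanine carrier ASCT1, was at 65.6, 40.7 and 10.5 CPM in SA, 46.3, 59.15 and 69.45 in IBA and 226 and 124 in LT. It rose 2.99-fold from IBA to LT (log2 fold change 1.58 ± 0.50, adjusted p = 0.019), and the call was lost without IBA replicate 1 or LT replicate 1 (highest adjusted p = 0.19) and with the season as a covariate (log2 fold change 0.74, adjusted p = 0.37). Slc43a1, a facilitator of large neutral amino acids, differed among the states (adjusted p = 0.004), from a mean of 14.15 ± 4.06 CPM in SA to 38.3 ± 7.32 in LT, but missed the threshold from IBA to LT (log2 fold change 0.76 ± 0.30, adjusted p = 0.053).

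In the SLC6 family, sodium- and chloride-coupled carriers of GABA, taurine and betaine, 2 of 4 genes fell from IBA to LT. Of all single-gene units 26.6% fell. Slc6a12 encodes the betaine carrier BGT1, and its counts were 137, 149 and 229 CPM in SA, 79.3, 129.8 and 74.4 in IBA, 110, 94.9 and 106 in Ent, 59.9, 29.3 and 37.7 in ET and 32.95 and 39.3 in LT. It fell 2.45-fold from Ent to ET (log2 fold change -1.29 ± 0.29, adjusted p = 0.0061) and 2.61-fold from IBA to LT (log2 fold change -1.39 ± 0.33, adjusted p = 0.0043). The IBA to LT call was lost with the season as a covariate (log2 fold change -1.13, adjusted p = 0.069). Slc6a13, the hepatic GABA and taurine carrier GAT2, lies 3985 nt upstream of Slc6a12 on the same strand. It was at 44.6, 99.02 and 54.8 CPM in SA, 34.1, 22.2 and 15.5 in IBA and 6.65 and 2.504 in LT, and fell 5.17-fold from IBA to LT (log2 fold change -2.37 ± 0.72, adjusted p = 0.016), a call lost without LT replicate 3 (highest adjusted p = 0.13) and with the season as a covariate (log2 fold change -2.25, adjusted p = 0.099). Without LT replicate 1 the log2 fold change of Slc6a13 was -3.231. Slc6a11, GAT3, fell from Ent to ET (log2 fold change -1.69 ± 0.53, adjusted p = 0.03), but its groups overlapped and the call was lost without Ent replicate 2, Ent replicate 3, ET replicate 1 or ET replicate 2 (highest adjusted p = 0.098). The taurine carrier Slc6a6 was not called (from IBA to LT, log2 fold change 0.40 ± 0.34, adjusted p = 0.35). Of the other amino acid carriers, Slc38a9 differed among the 5 states (adjusted p = 0.0078), while Slc36a1, Slc38a6 and Slc38a7 did not pass in any comparison.

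Of the 11 bile acid and organic ion carriers, 1 rose and 3 fell from IBA to LT, against 24.1% and 26.6% of all single-gene units. From SA to IBA 3 rose, against 2.7% of all single-gene units. Slc10a1 (HiC_Itri_2 chromosome Itri5, 61216569 to 61236604, plus strand) encodes NTCP, the sodium-coupled carrier by which hepatocytes take conjugated bile acids from portal blood. Its counts were 575, 232 and 386 CPM in SA, 402, 314 and 293 in IBA, 349.6, 282 and 344 in Ent, 85.1, 92.1 and 95.8 in ET and 84.2 and 52.3 in LT. The ET and LT libraries lay far under all others. Slc10a1 fell 3.57-fold from Ent to ET (log2 fold change -1.84 ± 0.28, adjusted p = 0.00099), 4.76-fold from Ent to LT (log2 fold change -2.25 ± 0.33, adjusted p = 0.00088) and 4.92-fold from IBA to LT (log2 fold change -2.30 ± 0.33, adjusted p = 0.00016), and it was the 1 carrier past 0.001 from Ent to ET and from Ent to LT. All 3 calls held at 0.05 without any 1 library. Among the fits that leave out 1 library, the calls at 0.001 from Ent to ET and from Ent to LT held only without SA replicate 1 or 2, and the counts of carriers past 0.001 in these comparisons were 0 in the other fits without 1 library.

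Genes that rose from SA to IBA included both Slco carriers of the class and Slc22a23. Slco2b1 encodes OATP2B1, an uptake carrier of sulfated steroids and other organic anions. It was at 218, 217 and 384 CPM in SA, 497, 529.7 and 546.5 in IBA, 525, 509 and 509 in Ent, 368, 249 and 277 in ET and 366 and 348 in LT. Slco2b1 rose 1.92-fold from SA to IBA (log2 fold change 0.94 ± 0.21, adjusted p = 0.021), a call lost without SA replicate 1, SA replicate 2 or any single IBA library (highest adjusted p = 0.084) and in the fit of these groups alone, and fell from Ent to ET (log2 fold change -0.79 ± 0.21, adjusted p = 0.014), a call lost without ET replicate 2 (highest adjusted p = 0.053). Slco1a2 encodes OATP1A2, an uptake carrier of bile acids and other organic anions, with 96.4, 107.5 and 112 CPM in SA and 325, 202 and 212.5 in IBA. It rose 2.34-fold from SA to IBA (log2 fold change 1.22 ± 0.22, adjusted p = 0.0077), which held without any 1 library, and fell from Ent to ET (log2 fold change -0.75 ± 0.22, adjusted p = 0.022), which was lost without Ent replicate 2, ET replicate 2 or ET replicate 3 (highest adjusted p = 0.11). Slc22a23, a member of the organic ion family whose substrate is not known, was at 599, 732.5 and 606 CPM in SA and 1396, 1397 and 1406 in IBA, and rose 2.17-fold (log2 fold change 1.12 ± 0.17, adjusted p = 0.0038). It then fell from IBA to LT (log2 fold change -0.59 ± 0.19, adjusted p = 0.022), a call lost without LT replicate 3 (highest adjusted p = 0.16) and with the season as a covariate (log2 fold change -0.41, adjusted p = 0.24).

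The SLC22 family, which holds the carriers of drugs and endogenous organic ions, did not move as one. SLC22A24_gene24038 fell 3.898-fold from IBA to LT (log2 fold change -1.96 ± 0.38, adjusted p = 0.0012), from 251.5, 241 and 264 to 49.6 and 79.8 CPM. The second unit of the same name, SLC22A24_gene24034, was at 58.8, 116 and 139 CPM in IBA and 149 and 157 in LT and was not called (log2 fold change 0.54 ± 0.38, adjusted p = 0.25). The authors counted only uniquely aligned reads, so that reads from stretches common to this pair, if any, were left out. How alike the pair is in sequence was not examined, and their separate values are uncertain. From Ent to ET and from Ent to LT SLC22A24_gene24038 also fell (log2 fold change -1.005 ± 0.32, adjusted p = 0.034, and log2 fold change -1.21 ± 0.37, adjusted p = 0.029), calls that were lost without Ent replicate 1, Ent replicate 3, ET replicate 1 or ET replicate 3 (highest adjusted p = 0.12) and without Ent replicate 1, Ent replicate 3 or LT replicate 1 (highest adjusted p = 0.24), the latter also with the season as a covariate (log2 fold change -1.01, adjusted p = 0.054). Slc22a7, the organic anion carrier OAT2, was at 293, 307 and 346 CPM in Ent and 118 and 168 in LT and fell from Ent to LT (log2 fold change -1.14 ± 0.35, adjusted p = 0.03), a call lost without any single Ent library or any single LT library (highest adjusted p = 0.23). The urate carrier Slc22a12, best known from kidney, was not called (from IBA to LT, log2 fold change -1.08 ± 0.56, adjusted p = 0.13). SLC47A1_like, named for an efflux carrier of organic cations, differed among the 5 states (adjusted p = 0.0036) but in none of the 6 comparisons of pairs of states that were made. The unit named like SLC17A5, the lysosomal sialic acid exporter, rose 2.901-fold from IBA to LT (log2 fold change 1.54 ± 0.32, adjusted p = 0.0019), from 13.4, 7.94 and 12.3 CPM to 36.4 and 28.4.

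Among the 17 metal carriers 4 rose and 4 fell from IBA to LT. In the SLC30 family, which moves zinc, and for Slc30a10 manganese, out of the cytosol, 3 of 7 genes rose and none fell from IBA to LT. In the SLC39 family, which moves zinc, iron or manganese into the cytosol, none of 5 rose and 3 fell. Of all single-gene units 24.1% rose and 26.6% fell, and the difference between the families was not tested. Slc30a1 (HiC_Itri_2 chromosome Itri9, 64549549 to 64562400, plus strand) encodes ZnT1, the zinc exporter of the cell membrane. Its counts were 60.98, 46.2 and 67.85 CPM in SA, 37.2, 34.7 and 48.05 in IBA, 62.97, 77.85 and 89.8 in Ent, 122.5, 140.2 and 110.1 in ET and 129 and 119 in LT. Slc30a1 rose 1.92-fold from IBA to Ent (log2 fold change 0.94 ± 0.19, adjusted p = 0.0078), 1.62-fold from Ent to ET (log2 fold change 0.69 ± 0.18, adjusted p = 0.015) and 3.09-fold from IBA to LT (log2 fold change 1.63 ± 0.205, adjusted p = 6.3e-05). Slc30a2, which loads zinc into vesicles, had counts of 18.1, 8.53 and 24.7 CPM in SA, 10.8, 16.1 and 18.5 in IBA, 42.1, 57.9 and 43.9 in Ent, 99.1, 66.8 and 83.15 in ET and 64.55 and 77.3 in LT. It rose 3.13-fold from IBA to Ent (log2 fold change 1.65 ± 0.32, adjusted p = 0.0068) and 4.63-fold from IBA to LT (log2 fold change 2.21 ± 0.34, adjusted p = 0.00025). Slc30a4, another vesicular zinc carrier, had counts of 33.5, 40.7 and 39.1 CPM in SA, 34.95, 33.2 and 39.3 in IBA, 35.6, 56.99 and 57.4 in Ent, 69.95, 98.8 and 79 in ET and 75.9 and 89.99 in LT and rose 2.31-fold from IBA to LT (log2 fold change 1.21 ± 0.215, adjusted p = 0.00064). These 3 calls from IBA to LT passed 0.001 and held at 0.05 without any 1 library and with the season as a covariate (adjusted p = 0.00097, 0.0069 and 0.0025). The calls from Ent to ET were less firm, being lost without Ent replicate 1 (highest adjusted p = 0.063) for Slc30a1 and without Ent replicate 1 or ET replicate 2 (highest adjusted p = 0.058) for Slc30a4, which was lost in the fit of Ent and ET alone too.

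SLC39A14 (HiC_Itri_2 chromosome Itri17, 12393130 to 12426727, minus strand) encodes ZIP14, the hepatocyte importer of zinc, manganese and iron not bound to transferrin. Its counts were 556, 739 and 338 CPM in SA, 485, 398 and 400.1 in IBA, 297, 194 and 242 in Ent, 178, 122 and 172 in ET and 169 and 126 in LT. SLC39A14 fell 2.896-fold from IBA to LT (log2 fold change -1.53 ± 0.305, adjusted p = 0.0013), and the call held without any 1 library. A merged unit that joins Tasp1 with a second SLC39A14 name also fell, with a log2 fold change of -0.57 ± 0.186 (adjusted p = 0.022), and how reads divided between the units is not known. Slc39a9, a zinc importer of the Golgi, was at 91.2, 75.25 and 76.95 CPM in IBA and 43.8 and 52.3 in LT and fell 1.69-fold (log2 fold change -0.75 ± 0.15, adjusted p = 0.0012). Slc39a11 was at 80.1, 86.75 and 68.5 CPM in IBA, 45.15, 47.5 and 33.2 in Ent and 37.9 and 47.9 in LT. It fell 1.87-fold from IBA to Ent (log2 fold change -0.90 ± 0.23, adjusted p = 0.019) and 1.83-fold from IBA to LT (log2 fold change -0.87 ± 0.26, adjusted p = 0.014), calls lost without IBA replicate 1, IBA replicate 2 or Ent replicate 3 (highest adjusted p = 0.074) and without LT replicate 1 (highest adjusted p = 0.12). Slc39a8, ZIP8, was not called from IBA to LT (log2 fold change -0.37 ± 0.18, adjusted p = 0.11), nor was Slc39a10 (log2 fold change -0.33 ± 0.27, adjusted p = 0.34). The remaining members of the exporter family, Slc30a6, Slc30a7 and Slc30a9, were not called among the states.

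**Figure D5:**
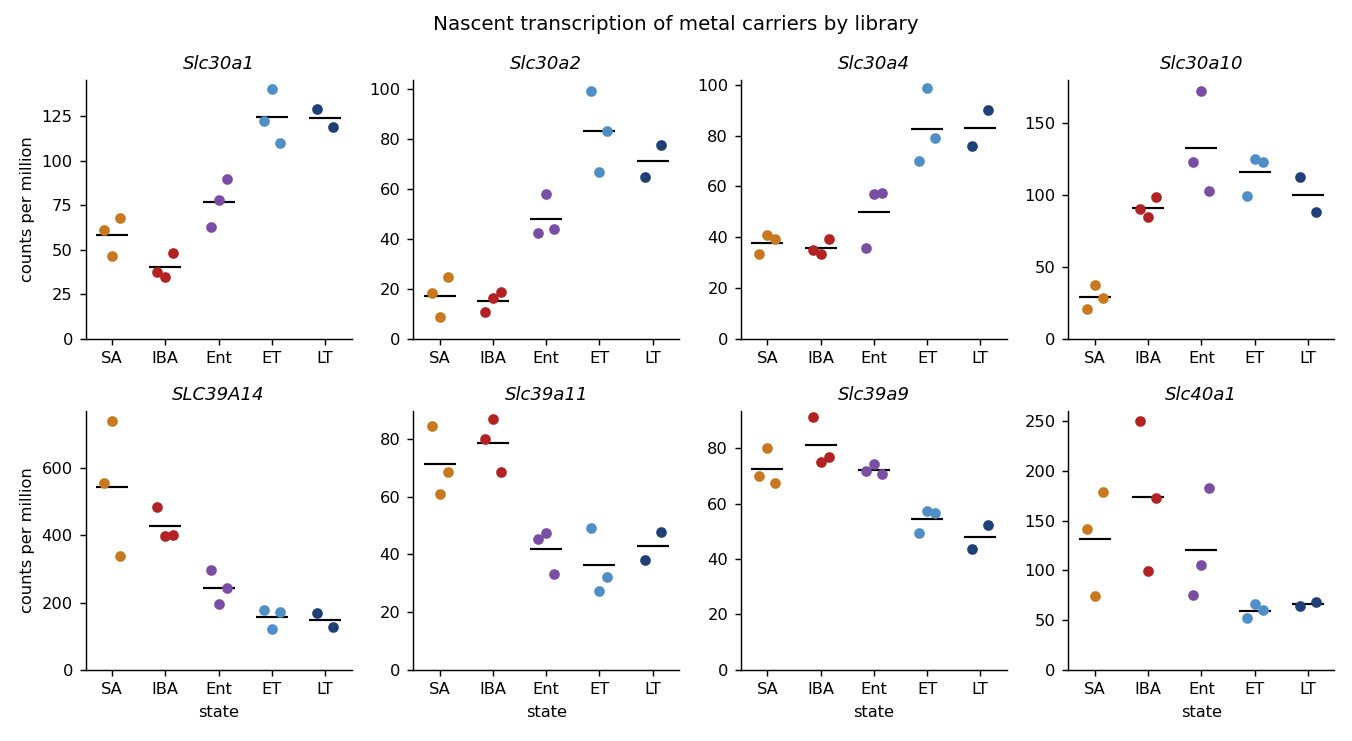
CPM (y axis, from 0) of 8 metal carriers in the 5 states (x axis); points are libraries and black lines are group means. Slc30a1, Slc30a2 and Slc30a4 are higher in every ET and LT library than in any IBA library, SLC39A14, Slc39a11 and Slc39a9 are lower there, and Slc30a10 steps up between SA and IBA.

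The seasonal change among metal carriers was in Slc30a10, which exports manganese from hepatocytes. Its counts were 20.5, 37.4 and 27.9 CPM in SA, 90.4, 84.2 and 98.2 in IBA, 123, 172 and 103 in Ent, 99.25, 125 and 123 in ET and 112 and 88.1 in LT. Slc30a10 rose 3.19-fold from SA to IBA (log2 fold change 1.67 ± 0.23, adjusted p = 0.0029) and was not called after that (from IBA to LT, log2 fold change 0.14 ± 0.25, adjusted p = 0.67). For iron and copper, Slc40a1 encodes ferroportin, the iron exporter that hepcidin removes from the membrane. Its counts were 142, 74.5 and 179 CPM in SA, 251, 99.3 and 173 in IBA, 74.85, 105 and 182.5 in Ent, 52.1, 66.2 and 60.65 in ET and 63.9 and 68.2 in LT. It fell 2.63-fold from IBA to LT (log2 fold change -1.40 ± 0.44, adjusted p = 0.02), with IBA libraries that spread more than those of other states, and the call was lost without IBA replicate 1 or any single LT library (highest adjusted p = 0.11) and with the season as a covariate (log2 fold change -0.96, adjusted p = 0.21). Ferroportin is also high in macrophages, whose marker list had no unit of its own, so that their part was not tested. Slc31a1, the copper importer CTR1, was at 42.9, 50.8 and 51.9 CPM in IBA, 55.4, 52 and 48.5 in Ent, 68.6, 105 and 78.2 in ET and 79.97 and 83.5 in LT. It rose 1.615-fold from Ent to ET (log2 fold change 0.69 ± 0.16, adjusted p = 0.0066) and 1.68-fold from IBA to LT (log2 fold change 0.75 ± 0.17, adjusted p = 0.0034), the latter lost with the season as a covariate (log2 fold change 0.65, adjusted p = 0.059). The iron importer Slc11a2 (DMT1) and the magnesium carriers Slc41a1 and Slc41a2 were not called in any comparison, with log2 fold changes from IBA to LT of 0.10 ± 0.19, 0.15 ± 0.44 and -0.36 ± 0.31.

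Of the 12 ion carriers, 1 rose and 5 fell from IBA to LT, against 24.1% and 26.6% of all single-gene units. None of them passed 0.001 in any comparison, where 17.6% of all single-gene units did from IBA to LT. Slc12a3 encodes NCC, the thiazide-sensitive sodium chloride carrier best known from kidney. Its counts were 53.75, 19.25 and 41.7 CPM in SA, 37.5, 66.5 and 42.3 in IBA, 73.5, 61.98 and 38.4 in Ent, 26.4, 7.07 and 15.2 in ET and 9.07 and 9.57 in LT. It fell 3.55-fold from Ent to ET (log2 fold change -1.83 ± 0.45, adjusted p = 0.01), 6.21-fold from Ent to LT (log2 fold change -2.63 ± 0.55, adjusted p = 0.0045) and 5.23-fold from IBA to LT (log2 fold change -2.39 ± 0.55, adjusted p = 0.0033). Only the comparison of Ent with LT was lost, without LT replicate 1 (highest adjusted p = 0.054), and with the season as a covariate the IBA to LT log2 fold change was -3.19. Slc26a7, a chloride and anion exchanger, was at 113, 126 and 143 CPM in IBA and 59.9 and 44.04 in LT and fell 2.45-fold (log2 fold change -1.29 ± 0.26, adjusted p = 0.0015), which held without any 1 library. Its relative Slc26a1, the sulfate and oxalate exchanger of the liver, went up: it was at 82.7, 143 and 103 CPM in IBA and 205 and 244 in LT and rose 2.04-fold (log2 fold change 1.03 ± 0.26, adjusted p = 0.0059). With the season as a covariate the Slc26a1 call was lost (adjusted p = 0.15), and its rise from Ent to ET (log2 fold change 0.75 ± 0.24, adjusted p = 0.031) was lost without Ent replicate 1, Ent replicate 3 or ET replicate 1 (highest adjusted p = 0.14) and in the fit of Ent and ET alone.

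Of 3 bicarbonate carriers 1 fell from IBA to LT (against 26.6% of all single-gene units), as did the 1 phosphate carrier. Slc4a4, the electrogenic sodium bicarbonate carrier NBCe1, had counts of 578, 542 and 589.6 CPM in SA, 603, 513 and 555 in IBA, 385, 367 and 424 in Ent, 336.5, 330.4 and 295 in ET and 238 and 429.9 in LT. It fell 1.67-fold from IBA to LT (log2 fold change -0.74 ± 0.20, adjusted p = 0.0095), a call lost without LT replicate 1 (highest adjusted p = 0.11) and with the season as a covariate (log2 fold change -0.67, adjusted p = 0.086). Slc20a2, the phosphate importer PiT2, was at 277, 235 and 232 CPM in IBA and 157 and 122 in LT and fell 1.78-fold (log2 fold change -0.83 ± 0.22, adjusted p = 0.0074), a call lost without LT replicate 3 (highest adjusted p = 0.083). Its step from IBA to Ent (log2 fold change -0.64 ± 0.19, adjusted p = 0.039) was lost without any single IBA library or any single Ent library (highest adjusted p = 0.14), with upper-quartile normalization and with the season as a covariate (log2 fold change -0.75, adjusted p = 0.061). Slc8b1, the sodium calcium exchanger of mitochondria, fell 2.36-fold from IBA to LT (log2 fold change -1.24 ± 0.32, adjusted p = 0.0068), a call lost without LT replicate 1 (highest adjusted p = 0.067). Slc4a2, the chloride bicarbonate exchanger AE2, Slc4a7, Slc9a8 and Slc9a9 were not called in any comparison.

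Among the 12 carriers of monocarboxylates, fatty acids and vitamins, 2 rose and 4 fell from IBA to LT. Of all single-gene units 24.1% rose and 26.6% fell. Slc13a5 (HiC_Itri_2 chromosome Itri7, 54575383 to 54611927, minus strand) encodes NaCT, by which hepatocytes take up citrate from blood. Its counts were 39.5, 228 and 57.98 CPM in SA, 80.7, 63.5 and 78.2 in IBA, 439.8, 191 and 824 in Ent, 218, 147 and 414.5 in ET and 292 and 276.5 in LT. The Ent libraries spread widely and SA replicate 2 stood far over the other SA libraries. Slc13a5 rose 6.54-fold from IBA to Ent (log2 fold change 2.71 ± 0.65, adjusted p = 0.016), the largest rise of any carrier in that comparison, and 3.83-fold from IBA to LT (log2 fold change 1.94 ± 0.68, adjusted p = 0.031). Both calls depended on single libraries: the first was lost without any single IBA library or Ent replicate 3 (highest adjusted p = 0.063) and the second without any single IBA library or any single LT library (highest adjusted p = 0.1). With the season as a covariate both were larger, with log2 fold changes of 3.62 (adjusted p = 0.0091) and 3.54 (adjusted p = 0.0038), and without Ent replicate 3 the first was 2.088. Slc16a7, the high-affinity monocarboxylate carrier MCT2, had counts of 379, 245 and 281 CPM in SA, 792, 715 and 841 in IBA, 497, 509 and 742 in Ent, 337, 509 and 424 in ET and 470.3 and 535 in LT. It rose 2.596-fold from SA to IBA (log2 fold change 1.38 ± 0.21, adjusted p = 0.0038), which held without any 1 library, and fell from IBA to LT (log2 fold change -0.64 ± 0.24, adjusted p = 0.039), which was lost without IBA replicate 1, IBA replicate 3, ET replicate 3 or any single LT library (highest adjusted p = 0.2), with library totals alone and with the season as a covariate (log2 fold change -0.62, adjusted p = 0.16). Slc16a12, a creatine carrier, also fell from IBA to LT (log2 fold change -1.38 ± 0.46, adjusted p = 0.023), a call lost without IBA replicate 1 or any single LT library (highest adjusted p = 0.11) and with the season as a covariate (log2 fold change -1.47, adjusted p = 0.083).

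In the rest of this class Slc46a1 and Slc27a4 fell and Slc46a3 rose from IBA to LT. Slc46a1 encodes PCFT, the proton-coupled folate carrier that also moves heme. Its counts were 23.6, 33.6 and 34.6 CPM in SA, 20.5, 16.9 and 19.3 in IBA, 20.9, 19.35 and 13.8 in Ent, 7.95, 8.84 and 8.14 in ET and 5.14 and 8.69 in LT, with every ET and LT library under every other library. Slc46a1 fell 2.17-fold from Ent to ET (log2 fold change -1.12 ± 0.24, adjusted p = 0.0052) and 2.72-fold from IBA to LT (log2 fold change -1.445 ± 0.28, adjusted p = 0.0011). Its relative Slc46a3, a lysosomal carrier counted over 2 separate pieces of 1 gene, rose 2.07-fold from IBA to LT (log2 fold change 1.05 ± 0.29, adjusted p = 0.01), a call lost without LT replicate 3 (highest adjusted p = 0.065) and with the season as a covariate (log2 fold change 1.12, adjusted p = 0.056). Slc23a2, the ascorbate carrier SVCT2, differed among the 5 states (adjusted p = 0.0031) with means of 245 ± 89.65 CPM in SA and 114 ± 4.93 in LT, and missed the threshold from IBA to LT (log2 fold change -0.61 ± 0.27, adjusted p = 0.078). The fatty acid carrier Slc27a4 fell from IBA to LT (log2 fold change -0.84 ± 0.21, adjusted p = 0.0053), a call lost without LT replicate 1 (highest adjusted p = 0.062) and with the season as a covariate (log2 fold change -0.75, adjusted p = 0.068). Slc27a2, the most transcribed of the fatty acid carriers, had counts of 1229, 649 and 1094 CPM in SA, 1197, 1216 and 1137 in IBA, 1524, 1372 and 1271 in Ent, 1048, 1434 and 1436 in ET and 1473 and 1317 in LT and was not called (log2 fold change 0.24 ± 0.24, adjusted p = 0.43), nor was the bile acid ligase Slc27a5 (log2 fold change -0.34 ± 0.61, adjusted p = 0.67), the folate carrier Slc19a1 (log2 fold change -0.30 ± 0.43, adjusted p = 0.59) or the vitamin carrier Slc5a6 (log2 fold change 0.09 ± 0.23, adjusted p = 0.77).

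Nucleotide sugar carriers supply the Golgi and endoplasmic reticulum with activated sugars. Among the 5 states 3 of the 10 genes in this class were called and 7 were not, where 63.3% of all single-gene units were called. Slc35e1, an orphan member, was the 1 gene of the class past 0.001. Its counts were 44.6, 51.99 and 46.7 CPM in SA, 35.2, 33.03 and 38.8 in IBA, 50.6, 52 and 55.7 in Ent, 119, 89.95 and 80.3 in ET and 71.2 and 77.3 in LT, so that every ET and LT library lay above every warm or cooling one. Slc35e1 rose 1.83-fold from Ent to ET (log2 fold change 0.87 ± 0.15, adjusted p = 0.0016) and 2.08-fold from IBA to LT (log2 fold change 1.06 ± 0.17, adjusted p = 3e-04), both of which held without any 1 library. Med26 ends 1069 nt upstream of Slc35e1 on the same strand. The part of transcription running on from Med26 in torpor was not tested. Slc35f3, a candidate thiamine carrier, was at 25.55, 99.3 and 70.6 CPM in SA and 6.25, 13.8 and 13.7 in IBA. It fell 5.69-fold from SA to IBA (log2 fold change -2.51 ± 0.54, adjusted p = 0.018), the largest fold of any carrier in that comparison, and the call was lost without any single IBA library (highest adjusted p = 0.08), in the fit of these groups alone and with limma-voom. Slc35g1 fell 3.02-fold from Ent to LT (log2 fold change -1.595 ± 0.32, adjusted p = 0.0039), which held without any 1 library, and from IBA to LT (log2 fold change -1.03 ± 0.32, adjusted p = 0.019), which was lost without IBA replicate 3 or any single LT library (highest adjusted p = 0.11) and with the season as a covariate (log2 fold change -0.46, adjusted p = 0.34). The other SLC35 genes, Slc35a1, Slc35a3, Slc35b3, Slc35c2, Slc35d1 and Slc35f6, had log2 fold changes from IBA to LT between -0.065 and 0.40, and the nucleoside carrier Slc28a1 had one of -0.39 ± 0.30. The adaptor gene Slc4a1ap fell from Ent to ET (log2 fold change -0.73 ± 0.17, adjusted p = 0.008) and from IBA to LT (log2 fold change -0.65 ± 0.19, adjusted p = 0.015), the latter lost without LT replicate 1 (highest adjusted p = 0.13), with library totals alone and with the season as a covariate (log2 fold change -0.71, adjusted p = 0.06).

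Length and neighbouring genes were described for the carriers that were called, without a test. The 25 that fell from IBA to LT had a median counted length of 52775 nt and the 11 that rose one of 25032 nt, against 36316 nt and 28461 nt for all single-gene units called lower and higher. Across the 87 carriers Spearman's rho between length and the log2 fold change was -0.241 from IBA to LT and -0.413 from IBA to Ent, and across all single-gene units -0.071 and -0.262. These are descriptions across genes of the same libraries, and genes are not independent replicates. The paper reports that in torpor transcription often ran past the ends of genes, also into adjacent genes. For 15 carriers the same strand held another unit that ended within 20000 nt upstream. Of these 15, 2 rose from IBA to LT (Slc35e1 and Slc26a1), 3 fell (Slc6a12, Slc8b1 and Slc4a1ap) and 10 were not called. Of all single-gene units 24.1% rose and 26.6% fell. Med26 ends 1069 nt upstream of Slc35e1 and fell from IBA to LT (log2 fold change -0.637 ± 0.204, adjusted p = 0.0203), from 150.1 to 96.5 CPM. The unit LOC110597536, 8576 nt upstream of Slc26a1, was not called (0.325 ± 0.316, adjusted p = 0.412). Whether transcription running on from upstream units added to the counts of these carriers was not tested.

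The mitochondrial Slc25a carriers were measured in the same libraries. Of 15 single-gene units of this family, 7 rose and 1 fell from IBA to LT (46.7% and 6.67%). Of the 87 other carriers 11 rose and 25 fell (12.6% and 28.7%), and of all single-gene units 24.1% and 26.6%. From IBA to Ent 7 of the 15 rose and 1 fell, against 4 and 6 of the 87. Of all single-gene units 8.57% rose and 8.12% fell in that comparison. The difference between the families was not tested. Among a list of 42 pumps, channels and regulators that work with the carriers, 22 had a unit, of which 2 rose and 8 fell from IBA to LT (against 24.1% and 26.6% of all single-gene units), with a median log2 fold change of -0.308 (against -0.088). G6pc, the glucose 6-phosphatase that releases glucose for export, fell from 1515 to 123 CPM (log2 fold change -3.62 ± 0.579, adjusted p = 0.000311). Aqp9, the glycerol channel of hepatocytes, fell from 432 to 140.0 CPM (-1.624 ± 0.373, adjusted p = 0.00332), and Abcg5, a sterol exporter, from 59.97 to 16.7 CPM (-1.847 ± 0.314, adjusted p = 0.000467). Abcb11, the bile salt export pump of the canalicular membrane, rose from 535 to 1132 CPM (1.082 ± 0.344, adjusted p = 0.0198) while Slc10a1, whose product sits on the blood side of the cell, fell. Of the regulators of hepatic carriers, Hnf4a fell from 819 to 387 CPM (-1.083 ± 0.192, adjusted p = 0.000633) and Nr1i2 from 304 to 150.5 CPM (-1.015 ± 0.201, adjusted p = 0.00128). Fits without 1 library, with the season or with other settings were read for the 87 carriers alone. Calls on genes outside them, Abcb11 included, were not checked in that way.

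The summed level of hepatocyte markers was lower in torpor too, though not every marker was. Of 10 hepatocyte markers 7 had a unit (Apob, Ttr, Fgb, Hnf4a, Cps1, CYP7A1 and Tf), and their summed level ran from 9287 to 20170 CPM in SA, 8735 to 13370 in IBA, 7123 to 8185 in Ent, 3688 to 5939 in ET and 4692 to 6988 in LT. Ttr, Fgb, Hnf4a, Tf and CYP7A1 fell from IBA to LT, where 26.6% of all single-gene units fell. Apob and Cps1, which had the highest levels of the list, were not called (edgeR adjusted p = 0.43 and 0.09). The Apob mean was 3228 CPM in SA and 3781 in LT. CYP7A1, the rate-limiting enzyme of bile acid synthesis, was at 136, 7.15 and 158 CPM in SA, 11.4, 10.2 and 13.7 in IBA and 1.06 and 0 in LT. The cholangiocyte list had only Sox9 (16.5 to 36.0 CPM in IBA, 7.07 to 10.1 in LT), the stellate list only Rgs5 (46.6 to 66.8 in IBA, 37.7 to 41.0 in LT), and the macrophage and erythroid lists had no unit. The part of these shifts in the changes of the carriers was not tested.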

How the data were processed

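GRO-seq counts per transcription unit were deposited for 14 livers. According to the study's methods, the authors trimmed reads with cutadapt, mapped them with BWA to the HiC_Itri_2 assembly, kept uniquely aligned reads and counted them with featureCounts, without the first 500 nt of each gene. The authors extended gene ends with transcribed segments called by Fstitch on merged libraries and joined overlapping genes into 1 unit, so that 31 units that join another gene to a carrier outside Slc25a are not among the members. Extension into run-on transcription can change a count, and counts of joined or neighbouring genes cannot be separated.

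The counts as deposited were fitted with edgeR 4.0.16 in R 4.3.3 (quasi-likelihood test, TMM normalization, 5 states, no filter on low counts, since filterByExpr would have removed 0 single-gene units), over all 6324 units. Other fits used DESeq2 1.42.0 and limma 3.58.1. Groups came from the labels and collection seasons from the study's animal list. The choice of this gene group, and so of its members, and of the lists was made with earlier results of these data known, while the rule for membership used names alone. Genes named are the 4 with the smallest 5-state p in each class, the 3 largest rises and falls called in each comparison, and a list of liver carriers, of which 40 of 73 had a unit. Replicate numbers did not pair the libraries. Some genes named by this rule are not reported here.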

Additional observations from a re-analysis of the deposited data

How the results depend on the processing

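For the 94 differences called at 0.05, 2141 values under up to 23 alternatives kept their direction and 1932 stayed past the threshold, while 209 lost it and 0 reversed, and 40 differences held under every alternative run. Counts of carriers past 0.001 moved most. At 0.05 in place of 0.001 they became 53 among the 5 states, 10 for SA against IBA, 10 for IBA against Ent, 21 for Ent against ET, 36 for IBA against LT and 17 for Ent against LT. DESeq2 at 0.001 gave 45, 10, 4, 10, 22 and 9 in the same order. With limma-voom the count from Ent to ET was 0. In fits of only the 2 compared groups it was 0 from Ent to ET, 14 from IBA to LT and 0 from Ent to LT. With the season as a covariate it was 6 among the 5 states and 4 from IBA to LT. The cause was not tested. Leaving out 1 library gave 13 to 19 among the 5 states, 0 to 1 from SA to IBA (1 without ET replicate 1), 0 to 1 from Ent to ET and from Ent to LT (1 without SA replicate 1 or 2), 1 to 12 from IBA to LT (1 without LT replicate 1, 12 without SA replicate 2), and 0 from IBA to Ent and from ET to LT. Where LT keeps 1 library, it is assumed to vary like the other groups.

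From IBA to Ent at 0.05, upper-quartile normalization gave 4 higher and 3 lower carriers and library totals alone 4 and 4. Of 26 pairs of libraries with the same replicate number, 6 deviated together at a correlation over 0.1 (range -0.273 to 0.265), so that the numbers were not taken as a pairing. With the replicate number as a block the count from Ent to ET at 0.001 was 0, and that from IBA to LT at 0.05 was 37. Depth limits the lowest genes, such as Slc6a13 with 17 counts in 1 library.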

Other observations

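Some carriers of interest in liver were counted only in units that join them to another gene, and their values cannot be assigned to the carrier alone. Slco1b3:U6, which holds the gene of the bile acid and organic anion carrier OATP1B3, had state means of 1768, 1584, 833, 496 and 440 CPM in SA, IBA, Ent, ET and LT. It fell from IBA to LT (log2 fold change -1.85 ± 0.34, edgeR adjusted p = 0.00073). Slc38a3:Gnai2, with the glutamine carrier SNAT3, rose (1.72 ± 0.23, edgeR adjusted p = 9.3e-05), and Ints3:Slc27a3, with a fatty acid carrier family member, fell (-2.14 ± 0.18, edgeR adjusted p = 9.1e-06). Rps25:Slc37a4, with the glucose 6-phosphate carrier, was not called from IBA to LT (log2 fold change -0.36, edgeR adjusted p = 0.25).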
